A study of Mus musculus with 2 samples.

Results

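The genes of RAB GTPases were compared between an NRF3-expressing and a GFP-expressing population of B16F10, a pigmented mouse melanoma line. Members were all genes whose symbol was Rab followed by a number and at most a letter and a further digit, so that effectors and RAB-like genes were left out. Rows with a single gene symbol in the platform annotation gave 56 such genes among 19505 named genes, each of the 56 with 1 probe set. All 56 matched a RefSeq gene with the same symbol and chromosome. A gene counted as detected if at least 1 array gave it a deposited log2 value of 5.89, the overall median of named probe sets. This floor, a rule and not a measured background, was met by 45 RAB genes and by 10162 genes in all.

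The NRF3 cells had been transfected with an NRF3 expression plasmid and the GFP cells with a GFP expression plasmid, each together with a puromycin resistance vector. Both populations were selected with puromycin and treated with forskolin, which raises cellular cAMP, for 5 days before total RNA was taken. With 1 array per group, the differences are given with neither error nor p-value and describe these 2 RNA samples only. The labels do not say which promoter drove the plasmids, which species' NRF3 was expressed, or whether clones or pools were used.

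RAB proteins are small GTPases that give membrane compartments their identity. An exchange factor loads a RAB with GTP on its target membrane, the GTP-bound form recruits effectors that move, tether or fuse vesicles, and a GTPase-activating protein ends the cycle. Prenyl groups at the C terminus hold the protein in the membrane, and GDI extracts it for reuse. In melanocytes, RAB32 and RAB38 deliver melanin enzymes to maturing melanosomes, and RAB27A ties ripe melanosomes to myosin Va through melanophilin.

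Nfe2l3, the gene of NRF3, had a log2 value of 10.15 on the NRF3 array against 6.04 on the GFP array, and the GFP value lay under 6.12, the median there of control rows whose name holds neg. Those rows had a median of 6.37 and an upper quartile of 7.85 on the NRF3 array, and an upper quartile of 7.52 on the GFP array. Some of them carried strong signal, up to 19.5 on the NRF3 array and 18.8 on the GFP array, so they are no plain background. A value in their lower range is still not shown to be expression. All 8 markers of the melanocyte lineage were detected, including Tyr, Tyrp1, Dct, Pmel, Mitf and Sox10. None of the 15 measured markers of leukocytes, fibroblasts, endothelium or epithelium reached the floor.

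RAB genes differed modestly between the populations. At least 1.5-fold higher in NRF3 cells were 10 of the 45 detected members, or 22.2%, beside 17.0% of all detected genes. At least 1.5-fold lower were 5, or 11.1%, beside 23.6% of all detected genes. Either way it was 15 members, where 40.6% of all detected genes passed. The median log2 difference of NRF3 minus GFP was 0.18 over the RAB genes and -0.07 over all detected genes. A difference above 0 was found for 28 of the 45, against 45.8% of all detected genes. Only 3 RAB genes reached 2-fold, Rab13 and Rab4a higher and Rab17 lower, where 6.75% of detected genes were 2-fold higher, 11.0% 2-fold lower and 17.8% either. The quartiles of the RAB differences were -0.36 and 0.55. The split of the 15 calls depended on the scaling. It was 13 higher and 2 lower after median centring, where 20.03% of all detected genes were higher and 20.6% lower. It was 15 higher and 2 lower after quantile normalization, which moved the median of all genes by 0.10 and left 20.9% of them higher and 19.9% lower. The count of higher members was 10 or more under each scaling tried, and 3 of the 5 lower calls, those of Rab5c, Rab31 and Rab32, lay close to the threshold. Median centring, quantile normalization and the lowess trend raised the differences of all 10 higher members, so they could not remove a higher call. Averaging probe sets could change no RAB value. With chromosome medians subtracted, 11 were higher and 3 lower, where 18.1% of all detected genes were higher and 19.5% lower.

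**Figure D1:**
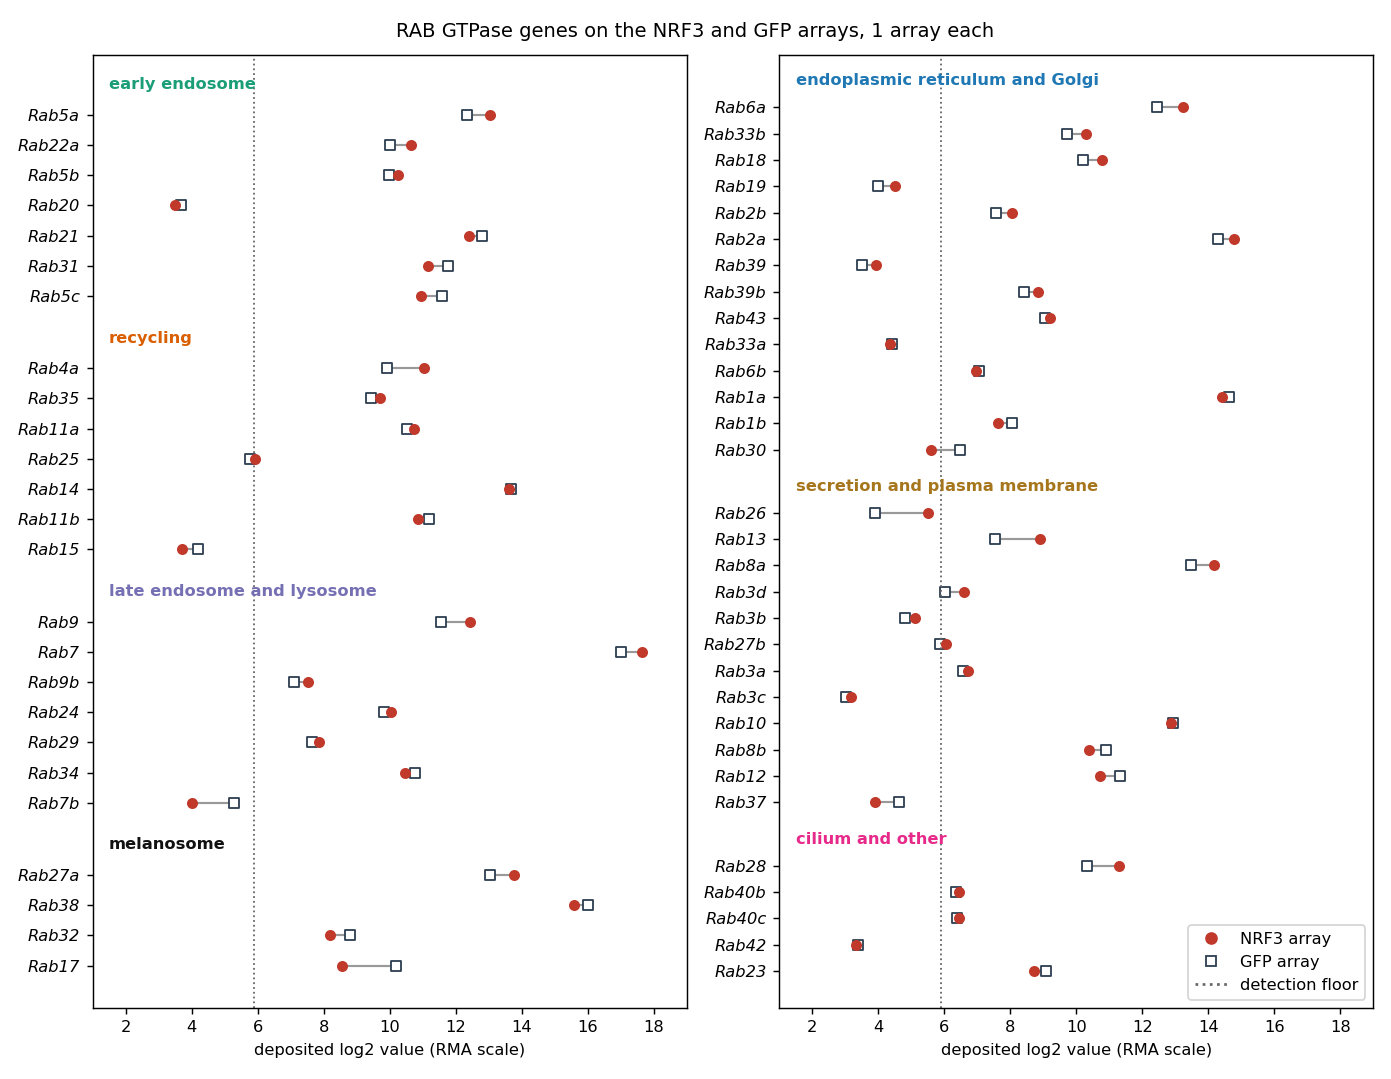
Deposited log2 values (horizontal axis) of the 56 RAB genes, grouped by the compartment they are known for, on the NRF3 array (filled circles) and the GFP array (open squares). The dotted line is the detection floor of 5.89, which 11 genes did not reach. The widest gap among detected genes is that of Rab17, at 8.56 on the NRF3 array and 10.20 on the GFP array.

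The melanosome RAB genes did not move as a block. Rab17, which in melanocytes has been linked to release of melanosomes from the cell, lay at 8.56 on the NRF3 array and 10.20 on the GFP array. It was 3.11-fold lower in NRF3 cells, the lowest difference of the 45 members at -1.64. Rab17 lies on chromosome 1, whose 552 detected genes had a median difference of -0.51. With that median subtracted, the difference of Rab17 was -1.13, still more than 2-fold. Rab32 lay at 8.20 on the NRF3 array and 8.79 on the GFP array, and its difference of -0.59 was only just past 1.5-fold. Under median centring it was -0.52, inside the threshold.

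Rab38, the gene mutated in chocolate mice, lay at 15.58 on the NRF3 array and 16.0 on the GFP array, a difference of -0.42 within 1.5-fold. With the median of chromosome 7 subtracted, 0.23, it was -0.66. Rab32 and Rab38 encode close relatives that share the exchange factor BLOC-3, and both lay on the lower side under each scaling tried. Rab27a, the gene mutated in ashen mice, went the other way. It lay at 13.77 on the NRF3 array and 13.03 on the GFP array, 1.68-fold higher in NRF3 cells. The difference of Rab27a was between 0.74 and 0.82 under all scalings tried. Its relative Rab27b was near the floor, at 6.06 on the NRF3 array and 5.88 on the GFP array, and cannot be told from background. The 4 melanosome genes had a median difference of -0.51.

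RefSeq promoter windows (GRCm38.p6) held Rab17, Rab27a and Rab32. The 250 bases before the start are shown for Rab17 and Rab27a because they are the lowest and the highest member of the melanosome group. Capitals mark matches on either strand to the motifs searched. These were the M-box TCATGTG and the E-box CACGTG, both read by MITF, the antioxidant response element core TGACNNNGC read by NRF factors with small MAF proteins, and the full cAMP response element TGACGTCA with its core TGACG, read by CREB. The core lies within the full element, and the other motifs can overlap it by a few letters. For Rab27a the window is the downstream one of a pair of annotated starts, and the window of the upstream start holds none of these motifs. The Rab17 window is chr1:90967668-90967917, minus strand, and the Rab27a window is chr9:73063898-73064147, plus strand.
Rab17: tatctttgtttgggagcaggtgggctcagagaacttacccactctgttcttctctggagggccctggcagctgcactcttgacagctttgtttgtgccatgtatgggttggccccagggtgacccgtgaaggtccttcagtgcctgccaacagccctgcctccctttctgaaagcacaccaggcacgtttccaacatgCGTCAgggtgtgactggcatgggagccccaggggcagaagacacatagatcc
Rab27a: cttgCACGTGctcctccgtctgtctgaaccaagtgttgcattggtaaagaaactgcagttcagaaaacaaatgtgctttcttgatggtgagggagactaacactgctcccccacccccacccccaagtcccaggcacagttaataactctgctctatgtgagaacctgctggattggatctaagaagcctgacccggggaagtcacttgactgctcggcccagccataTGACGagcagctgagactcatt
The Rab27a window holds CACGTG 246 bases before the start and the core TGACG 22 bases before it. The Rab17 window holds only the core, on the opposite strand 52 bases before the start. The Rab32 window holds none of these letters. A match is no shown binding site.

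The early endosome genes were split, and the widest split was within the RAB5 family itself. RAB5 drives fusion of endocytic vesicles with early endosomes, and mammals carry a trio of RAB5 genes whose products largely share this task. Rab5a lay at 13.03 on the NRF3 array and 12.35 on the GFP array, 1.61-fold higher in NRF3 cells. Rab5b lay at 10.25 on the NRF3 array and 9.99 on the GFP array, a difference of 0.27. Rab5c lay at 10.96 on the NRF3 array and 11.59 on the GFP array, 1.56-fold lower in NRF3 cells. The RAB5 genes were thus ordered a above b above c in their differences, over a range of 1.32 on the log2 scale. Rab5a kept its place past 1.5-fold under each scaling tried, with differences of 0.68 to 0.95. Rab5c, at -0.64 as deposited, lay between -0.58 and -0.48 and thus inside 1.5-fold under median centring, quantile normalization, the lowess trend and the chromosome median.

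The windows upstream of the RAB5 genes are shown because these members differed among themselves. The Rab5a window is chr17:53478984-53479233, plus strand, the Rab5b window chr10:128696269-128696518, minus strand, and the Rab5c window chr11:100738216-100738465, minus strand, with capitals as above.
Rab5a: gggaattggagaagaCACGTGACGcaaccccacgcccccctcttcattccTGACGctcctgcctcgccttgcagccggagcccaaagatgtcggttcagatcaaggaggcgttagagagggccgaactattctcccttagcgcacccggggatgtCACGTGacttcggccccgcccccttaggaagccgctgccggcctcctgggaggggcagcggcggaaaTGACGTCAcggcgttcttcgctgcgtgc
Rab5b: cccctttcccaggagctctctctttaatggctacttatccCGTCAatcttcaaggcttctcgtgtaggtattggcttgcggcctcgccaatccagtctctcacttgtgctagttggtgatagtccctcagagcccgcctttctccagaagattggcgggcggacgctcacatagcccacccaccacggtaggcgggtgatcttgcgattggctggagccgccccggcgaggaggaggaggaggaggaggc
Rab5c: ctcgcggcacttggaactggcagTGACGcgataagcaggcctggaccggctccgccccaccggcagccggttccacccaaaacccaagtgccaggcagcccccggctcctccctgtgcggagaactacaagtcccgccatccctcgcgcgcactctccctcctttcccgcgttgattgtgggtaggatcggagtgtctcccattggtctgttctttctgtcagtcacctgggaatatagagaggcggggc
Rab5a has CACGTG at 235 and at 95 bases before the start and the full element TGACGTCA at 28 bases. No other of the 39 detected members with a window holds both motifs. The share of all detected genes that hold both was not counted. Singly, 10.0% of detected genes with a window hold CACGTG and 3.06% TGACGTCA, so at most 3.06% of them can hold both. Rab5b and Rab5c hold the core TGACG alone, at 210 bases on the opposite strand and at 227 bases.

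Over the promoters of the 39 detected RAB genes with a window, CACGTG stood in 4 (Rab5a, Rab21, Rab23 and Rab27a), or 10.3%, against 10.0% of the 8387 detected genes with a window. The share over all 27025 genes with a window was 6.86%. TCATGTG stood in Rab28 and Rab34, 5.13% against 2.27% of detected genes and 3.72% of all. TGACNNNGC stood in 5 genes (Rab7, Rab8a, Rab8b, Rab25 and Rab43), 12.8% against 13.5% of detected genes and 11.5% of all. TGACGTCA stood in Rab5a and Rab25, 5.13% against 3.06% and 1.77%. The core TGACG stood in 22, or 56.4%, against 31.4% of detected genes and 19.8% of all. It stood in 7 of the 9 higher members with a window and 3 of the 4 lower ones, so it did not separate the directions. A gene with several windows counts when any window holds the motif. These shares are descriptions, and base composition was not matched.

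The relatives of RAB5 were also divided. Rab22a, of early endosomes and recycling tubules, lay at 10.64 on the NRF3 array and 10.01 on the GFP array, 1.55-fold higher. Rab31, its closest relative, which acts between the Golgi and endosomes, lay at 11.17 on the NRF3 array and 11.78 on the GFP array, 1.52-fold lower. Rab21, which carries integrins inward, differed by -0.39. Of the 6 detected early endosome members 2 were therefore higher, 2 lower and 2 within 1.5-fold, with a median of -0.06. Each share past 1.5-fold was 33.3%, beside 17.0% higher and 23.6% lower of all detected genes. Rab20 was below the floor.

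**Figure D2:**
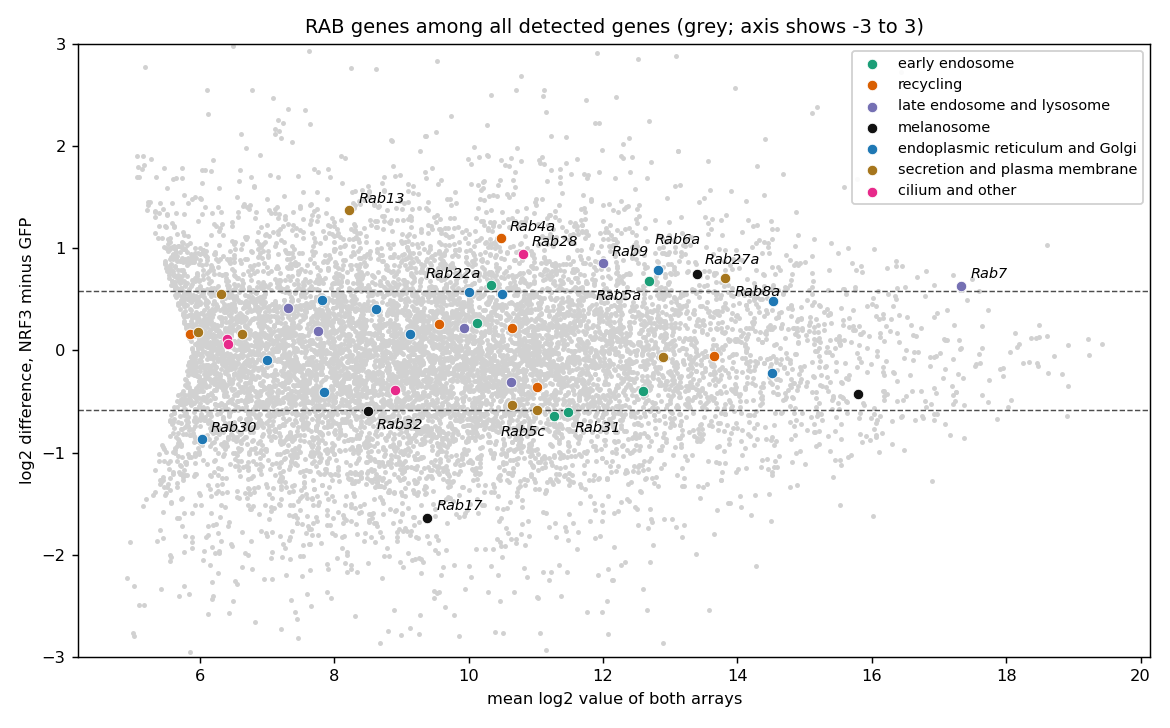
Log2 difference of NRF3 minus GFP (vertical axis) against the mean log2 value of both arrays (horizontal axis) for all detected genes (grey) and the 45 detected RAB genes (coloured by compartment). Dashed lines mark 1.5-fold, and 63 genes lie outside the plotted range of 3 log2 units either way. RAB genes past the lower line have small differences except Rab17, at -1.64, and Rab30, at -0.87.

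In the recycling group the RAB4 gene stood apart from the RAB11 genes. RAB4 returns receptors from early endosomes by the fast route, and RAB11 by way of the recycling endosome. Rab4a lay at 11.03 on the NRF3 array and 9.93 on the GFP array, 2.14-fold higher in NRF3 cells. It lies on chromosome 8, whose 549 detected genes had a median difference of 0.56, and with that subtracted its difference of 1.10 was 0.54, inside 1.5-fold. Rab11a differed by 0.22 and Rab11b by -0.36. Rab11a lay at 10.75 on the NRF3 array and 10.54 on the GFP array. Rab11b lay at 10.84 on the NRF3 array and 11.20 on the GFP array, so neither reached 1.5-fold. Rab35, of endosome-to-surface traffic, differed by 0.26 and Rab14, of endosome-to-Golgi traffic, by -0.05. Rab25, an epithelial RAB11 relative, was just above the floor at 5.94 on the NRF3 array and 5.77 on the GFP array. Its values cannot be told from background. Rab4b, planned with this group, had no row with a single gene symbol and was not analysed here.

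Late endosome and lysosome genes were mostly on the higher side. They had a median of 0.32 over 6 detected members, 5 of them above 0. At least 1.5-fold higher were 2, or 33.3%, and as much lower 0, beside 17.0% and 23.6% of all detected genes. Rab7, the RAB that late endosomes need to fuse with lysosomes, lay at 17.65 on the NRF3 array and 17.01 on the GFP array, 1.55-fold higher. Only 25.5% of the 165 detected genes with a mean log2 value above 16 differed 1.5-fold either way. Rab9, which returns mannose 6-phosphate receptors to the Golgi, lay at 12.43 on the NRF3 array and 11.57 on the GFP array, 1.81-fold higher. Both kept their place past 1.5-fold under every scaling tried. Rab9b differed by 0.41, Rab24 by 0.22, Rab29, a partner of the kinase LRRK2, by 0.19, and Rab34, which acts on lysosome position, by -0.31. Rab7b, at 4.01 on the NRF3 array and 5.28 on the GFP array, was below the floor.

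The endoplasmic reticulum and Golgi group was the largest, with 11 of its 14 genes detected. Rab6a, of traffic within and out of the Golgi, lay at 13.22 on the NRF3 array and 12.43 on the GFP array, 1.73-fold higher. It was the only member past 1.5-fold upward, and with the chromosome 7 median subtracted it lay at 0.56, inside the threshold. Rab33b, which binds the autophagy protein ATG16L1, differed by 0.57, Rab18, of lipid droplets, by 0.55, Rab2b by 0.50 and Rab2a by 0.49. These 4 lay just short of 1.5-fold and each passed it under at least 1 other scaling. Rab1a and Rab1b, which start transport out of the endoplasmic reticulum, differed by -0.23 and -0.41. Rab30, a Golgi RAB, lay at 5.59 on the NRF3 array and 6.46 on the GFP array, 1.83-fold lower. The NRF3 value of Rab30 was under the median of the neg rows, and the 1.83-fold therefore rests on a background-level reading. Rab39b, Rab43 and Rab6b differed by 0.40, 0.16 and -0.09.

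Among the RAB genes of secretion and the plasma membrane, Rab13 had the highest difference of all detected members. RAB13 acts at tight junctions in epithelial cells. Rab13 lay at 8.91 on the NRF3 array and 7.54 on the GFP array, 2.59-fold higher. Its GFP value was level with the upper quartile of the neg rows, 7.52. Rab8a, which carries cargo from the Golgi to the surface and to cilia, lay at 14.17 on the NRF3 array and 13.46 on the GFP array, 1.64-fold higher. It shares chromosome 8 with Rab4a, and its difference was 0.15 with the chromosome median subtracted. Rab8b differed by -0.53. Rab12, of transferrin receptor degradation, differed by -0.582 and was just inside the log2 limit of 0.585. Rab10, which in fat cells moves glucose transporters, differed by -0.07. Of the RAB3 genes of regulated exocytosis, Rab3d differed by 0.55 and Rab3a by 0.16, both at dim values.

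In the last group Rab28, a RAB of cilia, lay at 11.28 on the NRF3 array and 10.33 on the GFP array, 1.93-fold higher in NRF3 cells. It stayed past 1.5-fold under each scaling tried. Rab23, which restrains Hedgehog signalling, differed by -0.39, and this sign turned to 0.12 with the chromosome 1 median subtracted. Rab40b and Rab40c, whose products carry a SOCS box, differed by 0.11 and 0.07 at values between 6.34 and 6.46.

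The 11 members below the floor were Rab42, Rab20, Rab19, Rab39, Rab33a, Rab7b, Rab15, Rab26, Rab3b, Rab3c and Rab37. Rab26 came closest, at 5.49 on the NRF3 array and 3.91 on the GFP array. Of the 45 members above the floor, 11 had a value under the upper quartile of the neg rows on at least 1 array. Without those 11, 10 of 34 were higher and 4 lower, against 16.6% and 21.1% of all genes held to the same limit. The calls upward thus all came from probe sets brighter than that limit.

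Some closely related RAB genes differed in direction. The sets of relatives compared hold detected genes only. That of the RAB3 genes holds Rab3a and Rab3d, without Rab3b and Rab3c, which were below the floor. Rab7 and Rab7b form no set, as Rab7b was below the floor. In 5 of the 12 sets the signs were opposite, and in 4 the gap between the highest and the lowest member was at least 1.5-fold. Among the pairs neither was frequent beside other genes. Of the 11 sets that are pairs, 4 had opposite signs, or 36.4%, against 49.6% of all pairs of detected genes. A gap of at least 1.5-fold was found in 3, or 27.3%, against 57.2%. These shares leave out the RAB5 trio, which had opposite signs and the widest gap, 1.32. Several pairs hold a dim member, such as Rab6b or Rab27b. The opposite signs of Rab6a and Rab6b were lost under quantile normalization and the lowess trend, where Rab6b lay at 0.064 and 0.0086. The 4 sets with the wider gaps were the RAB5 genes, Rab8a and Rab8b with a gap of 1.25, Rab22a and Rab31 with 1.24, and Rab6a and Rab6b with 0.88. Rab2a and Rab2b, by contrast, were 0.01 apart, and Rab32 and Rab38 were 0.17 apart.

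**Figure D3:**
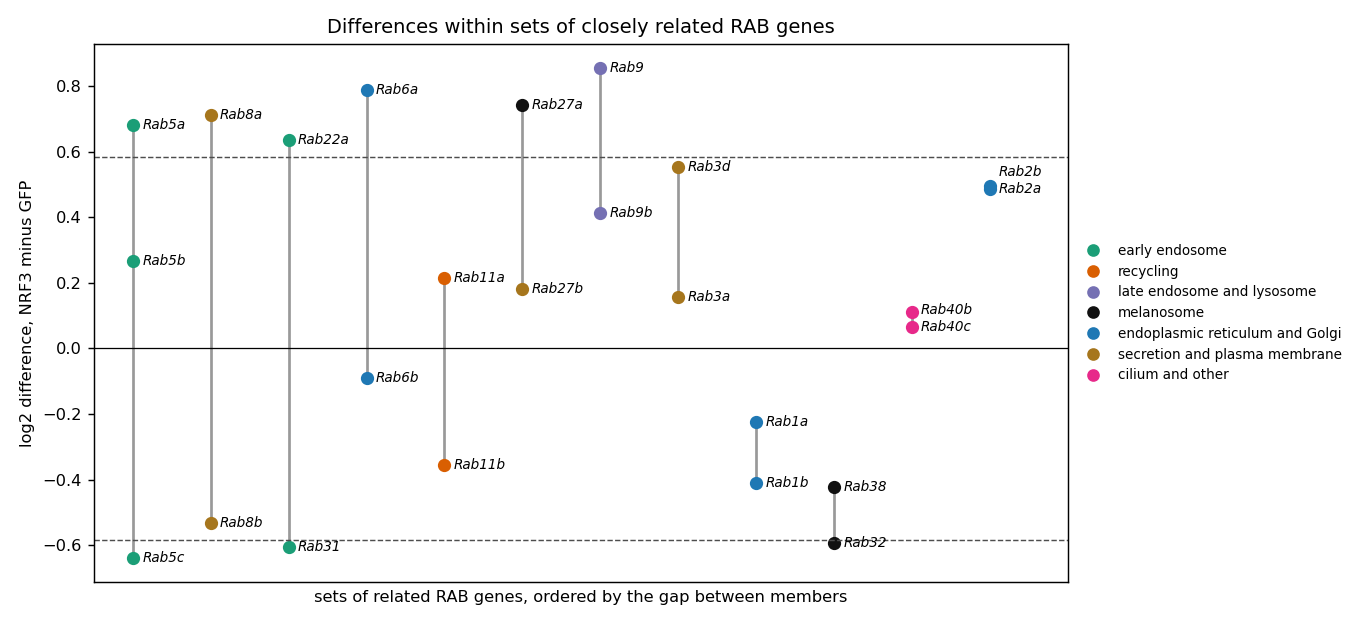
Log2 difference of NRF3 minus GFP (vertical axis) for 12 sets of related RAB genes, ordered by the gap between their members. Points are single genes coloured by compartment, and dashed lines mark 1.5-fold. The RAB5 genes span 1.32 log2 units, whereas Rab2a and Rab2b nearly coincide.

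**Figure D4:**
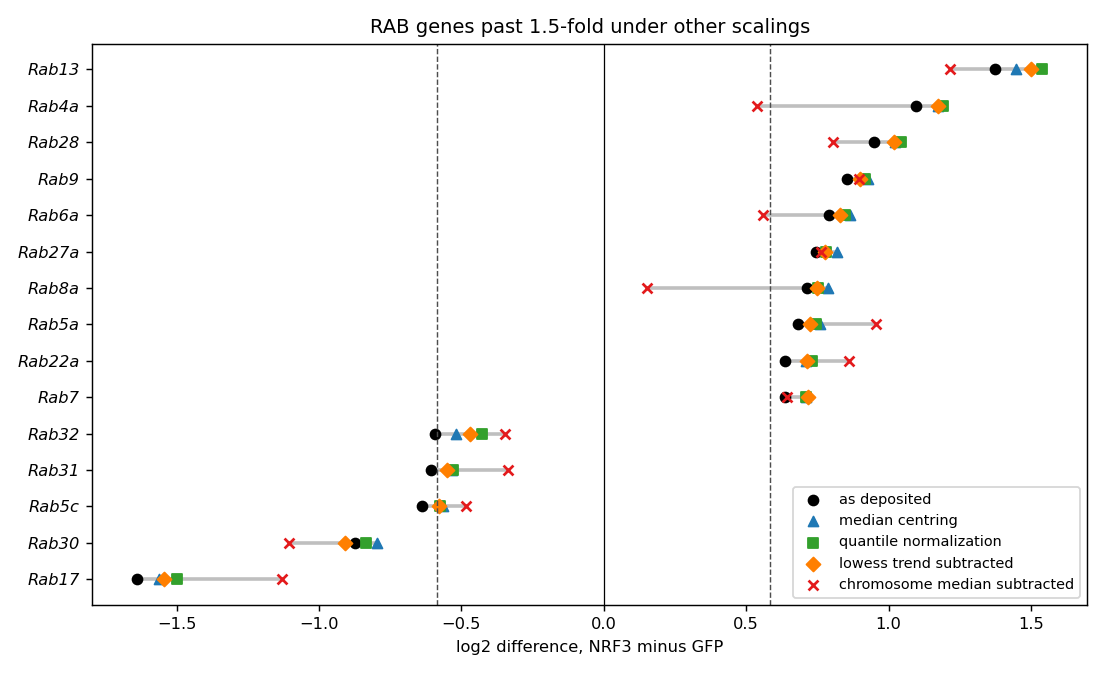
The 15 RAB genes past 1.5-fold, with the log2 difference of NRF3 minus GFP (horizontal axis) as deposited and under other scalings. All 15 kept their sign, and 9 stayed past the dashed 1.5-fold lines under every scaling. The same share over all genes past 1.5-fold was not counted. With the chromosome 8 median subtracted, Rab4a lies at 0.54 and Rab8a at 0.15.

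Genes that act on RAB proteins, are recruited by them or work beside them were taken from lists of 190 genes. Of these, 175 were measured and 145 detected. Of the 145, 25 were at least 1.5-fold higher and 19 lower, shares of 17.2% and 13.1% beside 17.0% and 23.6% of all detected genes. Their median difference was 0.07. The list of RAB prenylation and recycling off membranes held 8 genes, of which 6 were measured and 5 detected. None of the 5 differed 1.5-fold, where 40.6% of all detected genes did. In that list of 5 detected genes, the acceptor gene Rabac1 was highest at 0.53, followed by Gdi2, a GDI gene, at 0.11. The escort protein gene Chm was lowest at -0.45, and Rabggta, a subunit of the prenylating enzyme, lay at -0.39. Chm was under the upper quartile of the neg rows on both arrays, and Rabggta on the NRF3 array.

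Exchange factor genes had a median of 0.16 over 42 detected, and 11 were higher and 4 lower. These are shares of 26.2% and 9.52%, beside 17.0% and 23.6% of all detected genes. Trappc2l, a subunit of the TRAPP complex that activates RAB1, lay at 11.98 on the NRF3 array and 9.43 on the GFP array, 5.84-fold higher. It lies on chromosome 8 and its difference of 2.55 was 1.98 with the chromosome median subtracted. Dennd2d was second at 1.09, but its values, 7.23 on the NRF3 array and 6.15 on the GFP array, lay under the upper quartiles of the neg rows. Dennd2a lay at 8.78 on the NRF3 array and 11.12 on the GFP array, 5.06-fold lower, and Dennd6b differed by -1.90 at dim values. Dennd6b was detected through its GFP value alone, 7.40, and its NRF3 value, 5.51, was under the floor. Dennd2a and Dennd2d belong to the DENN family that acts on RAB9. Exchange factor genes of RAB5, RAB7 and the melanosome RABs, chosen after their values were seen, went both ways. The 4 detected for RAB5 were Rabgef1 at 0.95, Gapvd1 at 0.20, Rin3 at -0.0016 and Rin2 at -0.57. Ccz1 and Mon1a, for RAB7, lay at 0.80 and -0.39, and Hps1 and Hps4, the BLOC-3 pair, at -0.53 and 0.19. Hps1, at 6.25 on the NRF3 array and 6.78 on the GFP array, was under the upper quartile of the neg rows on both. Mon1a and Rin3 were under it on the NRF3 array.

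Genes of GTPase-activating proteins had a median of 0.02 over 29 detected. Higher were 4 and lower 2, or 13.8% and 6.90%, beside 17.0% and 23.6% of all detected genes. Tbc1d13 and Tbc1d17 were highest at 1.31 each, the GFP value of Tbc1d17, 5.91, being next to the floor. Tbc1d1, a regulator of glucose transporter traffic in muscle, was lowest at -1.02, and Tbc1d31 lay at -0.97. This class had fewer members past 1.5-fold than the exchange factors, 6 of 29 against 15 of 42, where 40.6% of all detected genes passed. The difference between the lists was not tested.

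Effectors of RAB5 had a median of 0.51 over 15 detected genes, the highest of the 8 lists as deposited. Of them 5 were higher and 2 lower, or 33.3% and 13.3%, beside 17.0% and 23.6% of all detected genes. Vps18, among the 5 higher, was under the upper quartile of the neg rows on both arrays. It lay at 7.67 on the NRF3 array and 6.94 on the GFP array. With the floor at 9.51, the 75th percentile, the median of the list was 0.29 with 3 higher. That is under the 0.39 of the exchange factors, the 0.34 of the melanosome RAB list and the 0.32 of prenylation and recycling. Pik3r4 and Pik3c3, the VPS15 and VPS34 subunits of the lipid kinase that makes phosphatidylinositol 3-phosphate on endosomes, were highest. Pik3r4 lay at 9.74 on the NRF3 array and 8.53 on the GFP array, 2.31-fold higher. Pik3c3 lay at 8.96 on the NRF3 array and 7.81 on the GFP array, 2.22-fold higher. Vps16, a tether subunit, was lowest at -0.77 and Rabep2, which binds Rabex-5, next at -0.61.

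Effectors of RAB7 numbered 14 detected genes with a median of 0.05, 1 higher and 2 lower. The shares, 7.14% and 14.3%, stand beside 17.0% and 23.6% of all detected genes. Vps35, the retromer core subunit, was 2.59-fold higher, at 12.84 on the NRF3 array and 11.46 on the GFP array, and lies on chromosome 8. With the chromosome median subtracted it lay at 0.81. The retromer gene Vps29 was next at 0.38. Wdr91, which lowers endosomal phosphatidylinositol 3-phosphate, lay at 11.80 on the NRF3 array and 13.70 on the GFP array, 3.75-fold lower, and Osbpl1a differed by -0.59.

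Effectors of RAB4 and RAB11 had no member 1.5-fold higher and 2 of 9 lower, while Rab4a itself was higher. The lower share of 22.2% is near the 23.6% of all detected genes, of which 17.0% were higher. Rab11fip4 lay at 6.94 on the NRF3 array and 8.39 on the GFP array. Zfyve27 lay at 7.15 on the NRF3 array and 8.15 on the GFP array. Both NRF3 values were under the upper quartile of the neg rows. The highest were Rufy2 at 0.51 and Sh3tc2 at 0.48. The list for the melanosome RABs holds their effectors and also BLOC-1 subunits, which are not established effectors. It went both ways, 4 of 17 higher and 4 lower, with a median of 0.17. Each share was 23.5%, beside 17.0% higher and 23.6% lower of all detected genes. The 4 higher were Sytl2, Snapin, Bloc1s3 and Ankrd27, of which Snapin and Bloc1s3 are BLOC-1 genes. The 4 lower were Mlph, Myo5a, Hps5 at -0.85 and Hps6 at -0.70. Hps6 was detected through its GFP value alone, 6.02, and its NRF3 value, 5.32, was under the floor. Sytl2, which links RAB27A to the plasma membrane, was highest at 1.88 from a GFP value of 7.22 under the upper quartile of the neg rows, and Snapin, of the BLOC-1 complex, lay at 1.21. Mlph, the link from RAB27A to myosin Va, lay at 12.22 on the NRF3 array and 13.95 on the GFP array, 3.32-fold lower. Myo5a lay at 11.78 on the NRF3 array and 12.66 on the GFP array, 1.84-fold lower. The genes of the RAB27A, melanophilin and myosin Va chain thus differed in direction, Rab27a higher and its partners lower. Mlph, like Rab17, is on chromosome 1, and with the chromosome median subtracted it lay at -1.22.

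Of 15 detected effectors of Golgi and secretory RABs, 1 was higher and 3 lower, with a median of 0.06. The shares of 6.67% and 20% were both under the 17.0% and 23.6% of all detected genes. Golga5 lay at 0.69 and Bicd2, a dynein adaptor of RAB6, at 0.54, while Tmf1, a Golgi tether that binds RAB6, lay at -1.34. Micall2, an effector of RAB13 and RAB8, lay at -0.98 at dim values, opposite to Rab13 and Rab8a.

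**Figure D5:**
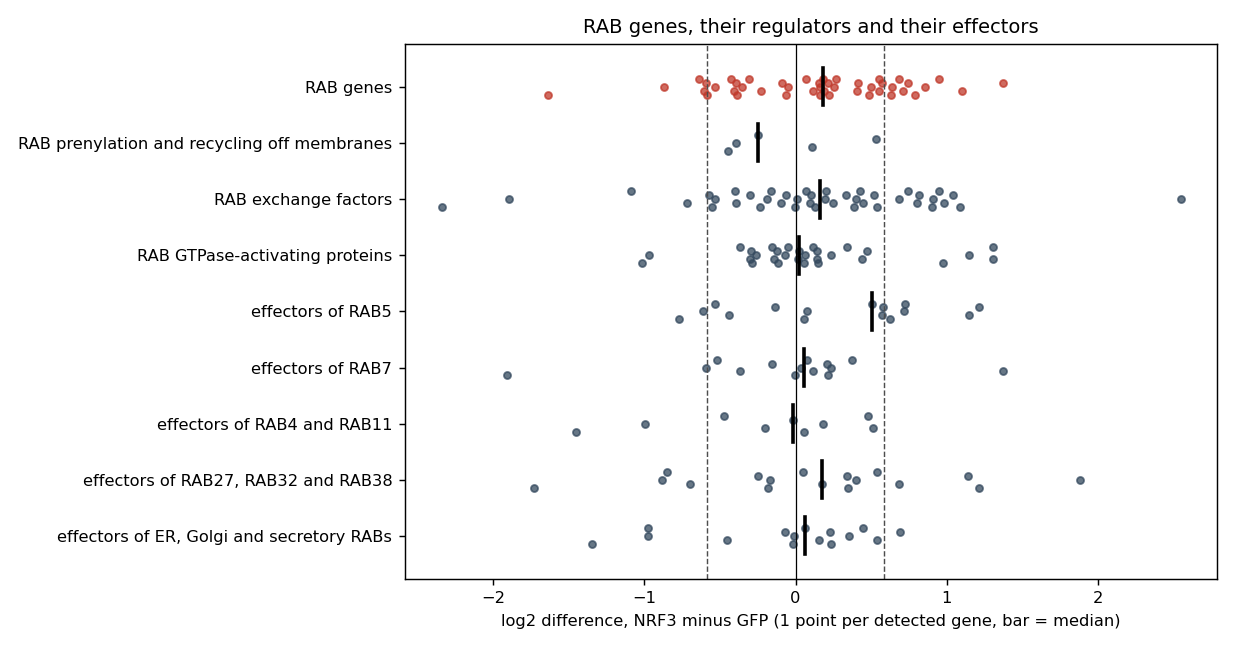
Log2 difference of NRF3 minus GFP (horizontal axis) for the detected RAB genes and the detected members of 8 lists of regulators and effectors, 1 point per gene, with the median as a bar and dashed lines at 1.5-fold. The medians run between -0.25 for prenylation and recycling and 0.51 for effectors of RAB5.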

How the data were processed

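Total RNA of 1 NRF3 and 1 GFP population of forskolin-treated B16F10 cells was labelled and hybridised to Affymetrix arrays, per the labels' protocols. The authors deposited log2 expression values per probe set, made with Affymetrix Expression Console and RMA, per the submitters' processing notes. For version, settings and build, "not given in the sources used here" applies. The highest deposited values, 19.7 on the NRF3 array and 19.8 on the GFP array, exceed a scanner's range, so folds are on the deposited scale. Arrays have no read depth. With 1 per group their number limits the precision, and no test was made.

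Of 28846 rows, 19572 had a single gene symbol in the platform annotation, and rows that name several genes were left out. Where a gene had several such single-symbol rows (55 genes), its brightest was used. The difference was the NRF3 minus the GFP value, with 1.5-fold (log2 of 0.58) as a rule of size. Genes named were all core members, all detected members past 1.5-fold, those nearest the floor, and the 2 highest and 2 lowest of each regulator list. Other RAB genes are given by their difference. The exchange factors of RAB5, RAB7 and melanosome RABs, and the other members of the melanosome RAB list past 1.5-fold, were added after their values were seen. The members, lists and motifs were chosen with earlier results of these data known. Promoter sequences are RefSeq windows, found for 47 members. Protein sequences were not used here. Alternatives were other floors, a 2-fold rule, median centring, quantile normalization, a lowess trend (span 0.3) subtracted, chromosome medians subtracted and probe sets averaged. The calling code was tested on simulated data. Analyses used Python 3.11.15, pandas 2.3.3, NumPy 2.4.6 and statsmodels 0.14.6.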

Additional observations from a re-analysis of the deposited data

How the results depend on the processing

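The count of lower RAB genes, 5 as deposited, was 2 after median centring, quantile normalization or subtraction of the lowess trend, 3 with chromosome medians subtracted and 3 with a floor of 9.51, the 75th percentile. Over all detected genes the lower share, 23.6% as deposited, was 20.6%, 19.9%, 20.9%, 19.5% and 24.1% in that order. The higher count, 10 as deposited, was 2 under the 2-fold rule, where the lower count was 1. With the genes of chromosomes 1 and 8 left out, an alternative added after the data were seen, 8 of 39 members were higher and 4 lower. The shares of all detected genes off these chromosomes were not counted.

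The median over all RAB genes, 0.18 as deposited, was 0.25 to 0.31 under median centring, the lowess trend and quantile normalization, and 0.17 with chromosome medians subtracted. Medians of some smaller groups also moved. With chromosome medians subtracted they were 0.30 for cilium and other genes, 0.18 for early endosome genes (-0.06 as deposited), 0.55 for late endosome and lysosome genes and 0.51 for the RAB5 genes. With the floor of 9.51 they were 0.95 for cilium and other genes, where Rab28 alone was left, and -0.30 for secretory genes. The mean of the endoplasmic reticulum and Golgi genes was 0.17 against a median of 0.40. Without the member farthest from the median, they were -0.39 for early endosome genes without Rab5a, 0.48 for the RAB5 genes without Rab5c, -0.59 for melanosome genes without Rab27a, and -0.071 for the RAB4 and RAB11 genes without Rab4a. Among the regulator lists, the floor of 9.51 gave medians of 0.32 for prenylation and recycling (-0.25 as deposited), 0.39 for exchange factors (0.16) and 0.29 for RAB5 effectors (0.51), quantile normalization gave 0.61 for RAB5 effectors, and chromosome medians gave 0.22 for RAB4 and RAB11 effectors (-0.017). Among the scalings, averaging probe sets could change no RAB value, and median centring, quantile normalization and the lowess trend favoured higher calls. How many of all genes past 1.5-fold stayed past it under every scaling was not counted. Of the 15 members past 1.5-fold, 9 stayed past it under all 5 scalings, 7 higher and 2 lower. The lower ones were Rab17 and Rab30, and the NRF3 value of Rab30 was under both the floor and the median of the neg rows. Among the 45 detected members 40 kept their sign, and the exceptions were Rab23, Rab6b, Rab10, Rab14 and Rab3a, all within 1.5-fold. No paired analysis was possible because each group has 1 array. The absence of replicates limits every value here, and dim values lie within the range of the neg rows.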
